A study of Mus musculus with 42 samples.

Results

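Late 2-cell mouse embryos cultured with FK866 together with NMN were compared with control embryos of the same stage, to describe which transcripts still differed from control once NMN had been supplied. A gene was taken in when control or FK866+NMN embryos reached 1 FPKM per library, which gave 8639 of the 15737 genes with a symbol listed once. FPKM are fragments per kilobase of exon, scaled to the reads of the library, so that values can be set side by side between genes. A difference is log2(FPKM per library + 1) of FK866+NMN minus that of control, and past 2-fold means a difference beyond 1 or below -1 on this scale.

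NAD+ is a cofactor of energy metabolism and the substrate of sirtuins and poly(ADP-ribose) polymerases. In mammals most of it is recycled from nicotinamide, which NAMPT turns into nicotinamide mononucleotide (NMN) and the NMNAT enzymes then turn into NAD+. FK866 inhibits NAMPT, and NMN given in the medium enters the pathway after the blocked step. In the mouse 2-cell embryo, maternal transcripts are degraded while a first, minor wave of zygotic genome activation (ZGA) gives way to the major wave, in which genes of the ribosome, RNA processing and metabolism come on.

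Embryos came from superovulated ICR females mated to ICR males and were cultured in KSOM medium. The 3 late 2-cell groups, collected 48 h after hCG, were control (vehicle, DMSO), FK866 at 0.01 µM, and FK866 at 0.01 µM with 10 µM NMN. Untreated early 2-cell embryos at 34 h and a column headed 4-cell control at 58 h served only to order genes by stage. Each group had 2 libraries, each from 3 pooled embryos, so that no value belongs to a single embryo, and fewer cells with a transcript and less of it per cell cannot be told apart. Whether pools of a group came from separate females was not stated, so the spread between libraries may be technical in part. The larger library of a group is called A and the smaller B; the letters do not link libraries of different groups.

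The FK866+NMN libraries stood apart from the rest. They had 8466640 and 5350013 reads, where control had 6523488 and 4164896, but at least 1 read in only 5496 and 6494 genes, against 7608 and 8403 in control, 8255 and 8464 in FK866 and 10178 and 9526 in early 2-cell embryos. Their log2(FPKM + 1) values correlated with each other at Pearson's r of 0.576 across 8240 genes, below the 0.768 of the control pair and the 0.834 of the FK866 pair, and below the 0.643 and 0.644 of FK866+NMN library B with the control libraries. Of the stage markers, Zscan4c stood at 126 and 47.7 FPKM in control and 31.0 and 82.2 in FK866+NMN libraries. Zfp352 stood at 67.2 and 63.0 in control but was listed at 0 in FK866+NMN library A and at 59.3 in library B, and Zp3, an egg coat gene, was likewise listed at 0 in A and at 38.6 in B. Genes that most cells use were also listed at 0 in these libraries, so that a 0 here says only that the gene had no read in that library. The part of these missing reads in the lower values below was not tested.

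**Figure D1:**
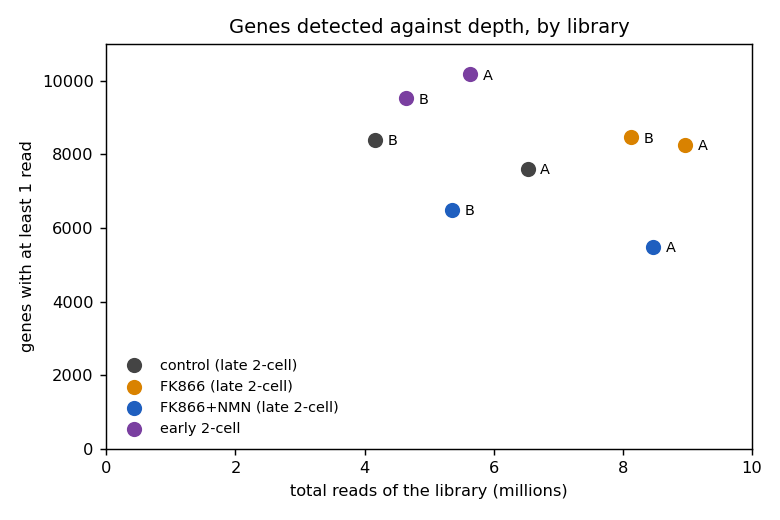
Genes with at least 1 read (vertical axis) against the total reads of the library (horizontal axis), 1 point per library, lettered A or B. The FK866+NMN libraries lie lowest, at 5496 and 6494 genes, although library A is among the deepest.

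Of the 8639 genes, 1813 (21.0%) were higher and 3128 (36.2%) lower past 2-fold in FK866+NMN than in control embryos, and the median difference was -0.35. The higher genes were scarce in control, with a median of 1.27 FPKM, and stood at medians of 3.03 in FK866 and 9.89 in FK866+NMN embryos. The lower genes had a median of 5.11 FPKM in control, 3.15 in FK866 and 0 in FK866+NMN embryos, and 1611 of them had no read in either FK866+NMN library. Both sets were chosen by their control and FK866+NMN values. An FK866 median between the others is favoured by that choice and is not read as a graded change. Both FK866+NMN libraries lay above both control libraries for 617 higher genes (7.49% of the 8241 whose values could be split into libraries) and below both for 1912 lower genes (23.2%). Counting only genes with at least 3 reads in both libraries of the higher group, an alternative added after the values were seen, these were 598 and 1838 genes. Centred on the median of all genes, the split became 2368 higher and 2315 lower.

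Lower genes outnumbered higher ones most among scarce transcripts. Of the 2169 genes with a mean below 2 FPKM, 358 were higher and 1306 lower, whereas of the 1762 genes between 10 and 30 FPKM, 439 were higher and 415 lower, with a median of 0.01. Between 30 and 100 FPKM 144 were higher and 213 lower, and from 100 FPKM on 57 and 71. With both libraries beyond, lower genes were more numerous in each of these classes, at 353 against 215 between 10 and 30 FPKM and 186 against 103 between 30 and 100. In the 3831 genes with a read in all 4 libraries, 669 were higher and 701 lower, with a median of -0.04. Without FK866+NMN library A the counts were 1630 higher and 3394 lower, and without library B 1444 and 4243.

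FK866 alone, set against the same control libraries, gave 1636 higher (18.1%) and 1800 lower (20.0%) of 9022 genes by its own minimum. Over the 8639 genes described here, FK866 alone had 837 higher (9.69%) and 1800 lower (20.8%), with a median of -0.16. These genes leave out those that reached 1 FPKM only with FK866 and keep those that did so only with FK866+NMN. The count of higher genes for FK866 is therefore too small to set against that for FK866+NMN. The list medians given for FK866 alone below rest on the same genes. The comparisons share their control libraries, so their values are given side by side and no more is read from their likeness.

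No gene passed an adjusted p of 0.05 in limma over 8241 genes (0 called, 0.0%), with a smallest adjusted p of 0.105. At an unadjusted p below 0.05, limma gave 237 higher (2.88%) and 894 lower (10.8%) genes. Single differences below are therefore given as the values of the libraries and are not called. This count rested on single libraries: limma called 6 higher and 479 lower without control library A, 6 and 372 without control library B, 180 and 26 without FK866+NMN library A and 119 and 156 without library B, each fit taking the lone library to vary like the other groups.

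The difference from control was compared between genes abundant at different stages. Of the genes compared, 2869 were early 2-cell-high, that is past 2-fold above the 4-cell column in early embryos, and 2631 were 4-cell-high, past 2-fold the other way. Neither column holds a library of the comparison. Among the early 2-cell-high genes 921 were higher and 642 lower in FK866+NMN embryos, with both libraries above for 411 of 2697 (15.2%) and below for 349 (12.9%). Among the 4-cell-high genes 237 were higher and 1217 lower, with both libraries above for 61 of 2539 (2.40%) and below for 910 (35.8%). The 3139 genes in between had 655 higher and 1269 lower. Of all genes 21.0% were higher and 36.2% lower, with 7.49% above and 23.2% below by both libraries.

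The median difference from control was 0.39 for the early 2-cell-high genes and -0.89 for the 4-cell-high genes, against -0.35 for all genes. Over single library pairs these medians ran from 0 to 0.19, from -1.28 to -0.66 and from -0.68 to -0.03. The 0.39 of the group columns thus lay above the value of every library pair. With FK866 alone the same sets had medians of 0.18 and -0.42. Without FK866+NMN library B the first median turned to -0.16, while that of all genes went to -1.16, and its distance above the median of all genes lay between 0.68 and 1.00 whichever library of the comparison was left out. The study's tables give the values of the column headed 4-cell control under another 4-cell group. The column that those tables give for 4-cell control is headed late 2-cell TSA (trichostatin A, a deacetylase inhibitor). Which of the 2 names is right was not settled. With that column, the medians were 0.33 and -0.86. The early 2-cell-high genes then had both libraries above for 410 and below for 414 of 2939, so that more genes above than below was not seen with that column, and the 4-cell-high genes 61 and 866 of 2347.

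**Figure D2:**
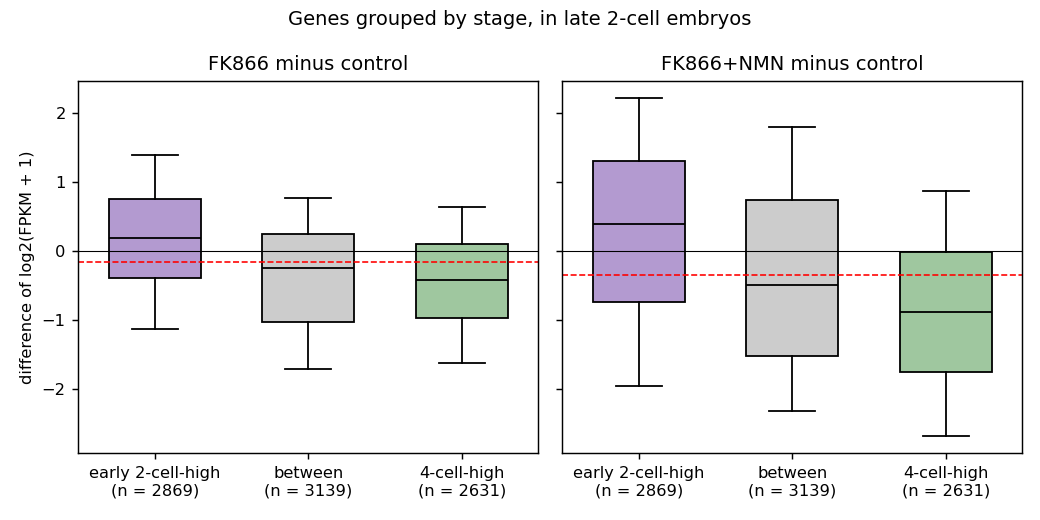
Difference of log2(FPKM + 1) from control (vertical axis) for FK866 (left) and FK866+NMN (right), by stage set. Boxes span the quartiles with the median as a line, whiskers the 10th to 90th percentile, and the dashed red line is the median of all 8639 genes. In the right panel the median of the early 2-cell-high genes is 0.39 and that of the 4-cell-high genes -0.89.

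The same order was seen in abundant transcripts, where few values were 0. Of 444 genes with a mean of at least 100 FPKM over both groups, 161 were early 2-cell-high and 200 were 4-cell-high. In this class 41 genes were higher past 2-fold with both FK866+NMN libraries above both control libraries, and 40 of them were early 2-cell-high. The other way, 64 genes were lower with both libraries below, of which 50 were 4-cell-high and 3 early 2-cell-high. These stage counts use the column headed 4-cell control and were not redone with the one headed late 2-cell TSA. This class and the genes named from it were chosen after the values were seen.

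Rbpms2, which encodes an RNA-binding protein of the oocyte, was at 99.3 and 101 FPKM in control, 275 and 279 in FK866 and 577 and 342 in FK866+NMN libraries, a difference of 2.19 (limma adjusted p = 0.13). Tfap2e, of the AP-2 transcription factors, was at 55 and 57.6 in control, 136 and 131 in FK866 and 220 and 248 in FK866+NMN libraries, a difference of 2.03 (limma adjusted p = 0.13). For both genes the FK866 libraries lay between the control and the FK866+NMN libraries, a position favoured by choosing genes on the other groups. Ybx3, a Y-box nucleic acid-binding protein, stood at 91.2 and 91.4, 177 and 156, and 242 and 289 FPKM in the same order of groups. Mtmr2, a phosphoinositide phosphatase, stood at 71.5 and 67.9 in control and 408 and 191 in FK866+NMN libraries, with 108 and 80.8 in FK866. Here FK866 alone was close to control, at a difference of 0.43 against 2.09 with NMN.

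Some enzyme genes showed nearly the same level with and without NMN. Me1, the cytosolic malic enzyme that makes NADPH, was at 67.0 and 91.8 FPKM in control, 177 and 150 in FK866 and 180 and 147 in FK866+NMN libraries, a difference from control of 1.03 in either case. Mat2b, a regulatory subunit of methionine adenosyltransferase, was at 80.5 and 100.2 in control, 249 and 189 in FK866 and 248 and 228 in FK866+NMN libraries. In early 2-cell embryos, Me1 stood at 221 and Mat2b at 519 FPKM, above both late 2-cell treatments.

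Among abundant genes lower than control, Hmgb2, a chromatin protein, was at 505 and 393 FPKM in control, 209 and 149 in FK866 and 105 and 83.2 in FK866+NMN libraries, a difference of -2.24 (limma adjusted p = 0.12). Selenos, a selenoprotein of the endoplasmic reticulum, was at 336 and 299, 209 and 148, and 57.4 and 78.7 FPKM in the same order. Snrpe, a core protein of spliceosomal snRNPs, was at 281 and 121 in control and 39.8 and 23.4 in FK866+NMN libraries. Orc6, a subunit of the origin recognition complex, was at 262 and 263 in control and 75.2 and 38.3 in FK866+NMN libraries. The groups did not overlap for any of these genes. Of the 64 lower genes, 12 have symbols of ribosomal protein genes, among them the pseudogenes Rpl15-ps3, Rps13-ps2 and Rpl36a-ps3. Pseudogenes, these included, number 23, all of them processed except Gm13341. Many share sequence with ribosomal protein genes, so their reads could not be assigned with certainty.

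**Figure D3:**
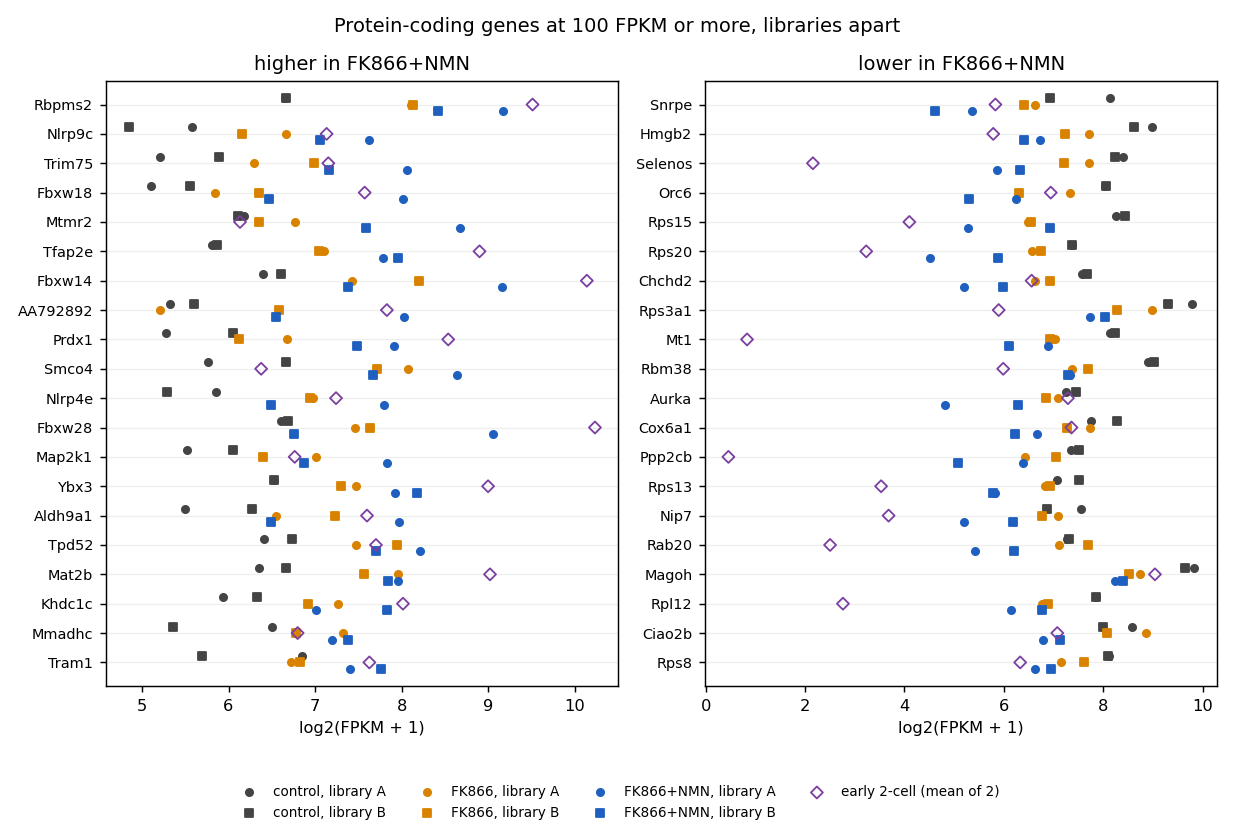
The 20 protein-coding genes with the largest difference in each direction among those with a mean of at least 100 FPKM and libraries apart. The horizontal axis is log2(FPKM + 1), with 1 point per late 2-cell library and an open diamond for the early 2-cell mean of 2 libraries. FK866 libraries often lie between control and FK866+NMN libraries, as for Rbpms2 with 275 and 279 FPKM. Choosing genes by the distance between control and FK866+NMN favours that position.

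Maternal oocyte genes were split. Of 41 listed oocyte factors compared, 16 were higher past 2-fold (39%, against 21.0% of all genes) and 9 lower (22%, against 36.2%), with a median of 0.44. Of the 34 split into libraries 10 lay above (29.4%, against 7.49% of all genes) and 7 below (20.6%, against 23.2%). The median ran from -0.25 to 0.86 over single library pairs and was -0.09 without FK866+NMN library A. The higher ones included NOD-like receptor genes of the oocyte. Of 13 genes with an Nlrp symbol, a grouping made after the values were seen, 9 were higher and 1 lower, where 21.0% and 36.2% of all genes were. Their median was 1.51 against 0.45 for FK866 alone. The grouping includes the pseudogenes Nlrp4g, a higher one, and Nlrp5-ps, the lower one, and Nlrp12, at 0 FPKM in early 2-cell embryos. Nlrp9c was at 46.6 and 27.9 FPKM in control, 100.4 and 70.3 in FK866 and 196 and 133 in FK866+NMN libraries. Nlrp4e was at 57.0 and 38.2, 125 and 122, and 222 and 89.1 in the same order. Nlrp4c was listed at 0 in control and stood at 2.20 and 3.71 in FK866 and 7.98 and 6.95 in FK866+NMN libraries. Nlrp5 and Nlrp14, the former needed for development past the 2-cell stage, were not among the higher genes, at differences of -0.27 and -0.32.

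A few more oocyte genes of the list are given that were chosen after their values were seen, because they were higher. Cnot6l, a deadenylase subunit needed for maternal mRNA decay, was at 21.5 and 18.4 FPKM in control and 66.6 and 68.6 in FK866+NMN libraries, with 40.9 and 21.9 in FK866. Pan3, of the other deadenylase complex, was at 11.3 and 14.2 in control, 34.3 and 26.8 in FK866 and 70.1 and 37.7 in FK866+NMN libraries. Ooep, a subcortical maternal complex gene, was at 23.1 and 30.4 in control, 28.3 and 28.1 in FK866 and 119 and 61.8 in FK866+NMN libraries. The 3 genes had all FK866+NMN values above all control values, and Ooep differed from control with NMN but not with FK866 alone (0.07). The other direction was taken by Zar1l, Patl2 and Mos, all involved in the oocyte's RNA or meiotic control and all listed at 0 in both FK866+NMN libraries. Zar1l was at 52.8 and 36.5 FPKM in control and 8.23 and 16.2 in FK866 libraries. Patl2 was at 8.69 and 3.55 and Mos at 5.08 and 7.13 in control.

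F-box genes of the Fbxw family, most of them in a cluster on chromosome 9 and known from the oocyte, gave a like picture and were grouped after the values were seen. Of 19 compared, 10 were higher and 4 lower, where 21.0% and 36.2% of all genes were. By both libraries 7 lay above and 1 below, where 7.49% and 23.2% of all genes did. Grouping by name took in Fbxw2, Fbxw5, Fbxw9 and Fbxw11, which lie on chromosomes 2, 8 and 11, outside the cluster. Of these, Fbxw2, Fbxw5 and Fbxw11 were among the lower genes, and Fbxw11 was the gene below. The median FPKM of the 19 was 19.2 in control, 28.3 in FK866, 29.7 in FK866+NMN and 46.4 in early 2-cell embryos. Fbxw24 was at 122 and 188 FPKM in control, 279 and 285 in FK866 and 414 and 231 in FK866+NMN libraries. Fbxw14 was at 83.5 and 96.2, 172 and 292, and 569 and 166 in the same order. The FK866+NMN libraries themselves differed widely for several members, as for Fbxw28 at 532 and 107 FPKM.

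Minor ZGA genes were approached through the study's own list of late 2-cell genes that were higher with FK866 and lower again with NMN. It was drawn from these samples, so its direction is not independent evidence. Of its 118 genes among the rows, 44 were below 1 FPKM in both control and FK866+NMN embryos, and 74 were compared. Their median FPKM was 2.94 in control, 15.3 in FK866, 8.83 in FK866+NMN and 10.2 in early 2-cell embryos. Relative to control, 37 stayed higher past 2-fold with NMN (50%, against 21.0% of all genes), 35 were within 2-fold and 2 were lower (2.7%, against 36.2%). The 44 genes below the minimum are left out of these shares. The median difference was 1.00 against 1.595 with FK866 alone, and the median over single library pairs ran from 0.01 to 1.09. In 15 of 72 genes (20.8%, against 7.49% of all genes) both FK866+NMN libraries lay above both control libraries, and in 14 of them with at least 3 reads in each.

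These 15 genes include Gdap1, a mitochondrial fission factor, at 16.8 and 6.77 FPKM in control, 52.6 and 46.5 in FK866 and 56.1 and 33.0 in FK866+NMN libraries. Fpgt, an enzyme of fucose salvage, was at 3.15 and 1.57, 22.3 and 20.6, and 26.5 and 9.91 in the same order. Rgs17, a regulator of G-protein signalling, was at 2.42 and 2.03, 18.9 and 16.2, and 7.44 and 15.0. Ptpn11, the SHP2 phosphatase, was at 6.59 and 13.8, 42.6 and 33.5, and 20.3 and 30.4. Khdc1a, a KH-domain gene of the early embryo, was at 60.3 and 74.4, 167 and 119, and 139 and 141. In these genes the FK866+NMN libraries stayed above control, and their overlap with the FK866 libraries differed from gene to gene. The remaining members were Agap3, Bach2, Patz1, Ibtk, Slc15a5, Gzf1, Fndc3b, Plekhb2, Tulp3 and Me1, of which Plekhb2, at 0.0148 FPKM in FK866+NMN library A and listed at 0 in control, cannot be told from control in that library.

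Markers of the 2-cell stage itself did not share that direction, and their share lower was no larger than that of all genes. Of 21 compared, 3 were higher (14.3%, against 21.0% of all genes) and 6 lower (28.6%, against 36.2%). By both libraries 3 lay above (14.3%, against 7.49%) and 5 below (23.8%, against 23.2%). Their median of -0.23, against -0.35 for all genes, ran from -1.46 to 0.15 over single library pairs. The Zscan4 family, telomere-associated genes that peak at the 2-cell stage, had 0 of 9 members higher and 1 lower (11.1%, against 36.2% of all genes). The lower one was Zscan4e, at 22.3 and 12.9 FPKM in control and 4.94 and 11.1 in FK866+NMN libraries. Of 10 Tdpoz genes 4 were lower (40%, against 36.2% of all genes), but only 5 could be split into libraries, with 1 below (20%, against 23.2%). Tdpoz4 was at 17.6 and 8.41 in control, 6.42 and 44.5 in FK866 and 0 and 5.54 in FK866+NMN libraries. Zfp809, a zinc-finger repressor of retroviral DNA, was at 30.1 and 25.9 in control and 0 and 16 in FK866+NMN libraries. Duxf3, the homeobox activator of 2-cell genes, stood at 0.589 FPKM in control, 2.12 in FK866 and 0.904 in FK866+NMN embryos by the group columns, a difference of 0.26 with NMN and 0.97 without. Duxf3 has near-identical copies, and its values could not be split into libraries, so these are the authors' values without a spread.

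The 3 higher 2-cell markers were Usp17l genes, which encode deubiquitinating enzymes of a cluster on chromosome 7. Because the start regions of the 4 genes compared are near-copies, a matching stretch of 72 bases upstream of each annotated start is shown, from RefSeq on GRCm38.p6. The stretch was found in all 4 genes. Capitals mark 2 motifs: the letters ATTGG, which read as CCAAT from the opposite strand, and farther along the letters TATAAA.
Usp17la, chr7:104856921-104856992, plus strand: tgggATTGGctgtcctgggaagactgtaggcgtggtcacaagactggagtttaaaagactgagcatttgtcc
Usp17lb, chr7:104842592-104842663, minus strand: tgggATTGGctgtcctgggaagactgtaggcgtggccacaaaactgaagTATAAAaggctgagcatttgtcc
Usp17lc, chr7:103416559-103416630, plus strand: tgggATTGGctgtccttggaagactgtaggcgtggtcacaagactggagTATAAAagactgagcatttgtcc
Usp17ld, chr7:103252593-103252664, minus strand: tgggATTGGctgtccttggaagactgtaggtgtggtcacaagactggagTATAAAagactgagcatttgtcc

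Between 66 and 71 of the 72 bases were identical in each pair. TATAAA was present upstream of Usp17lb, Usp17lc and Usp17ld, at -31, -88 and -110 from the annotated start, and not in the 250 bases upstream of Usp17la. On either strand, 12.4% of 32851 RefSeq promoters held TATAAA in those 250 bases and 33.8% held CCAAT. A match describes the letters only, and any bearing on the levels was not tested.

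Usp17ld was at 1.08 and 3.02 FPKM in control, 2.86 and 0.0619 in FK866 and 22.4 and 14.3 in FK866+NMN libraries. Usp17lb was at 44.7 and 84.1, 113 and 90.5, and 111 and 189 in the same order, and Usp17lc at 5.44 and 4.70, 10.7 and 3.46, and 5.63 and 22.8. The FK866+NMN libraries lay above the control libraries for all 3, by a wide gap for Usp17ld and a narrow one for Usp17lc. Usp17la was at 0.577 and 5.33 in control and 9.87 and 0.493 in FK866+NMN libraries, where the groups overlapped. Copies so alike may share reads, and the split of counts among them is uncertain.

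Few major ZGA and pluripotency genes lay apart. Of 20 compared, 5 were higher (25%, against 21.0% of all genes) and 1 lower past 2-fold (5%, against 36.2%). Of 19 split into libraries 0 lay above (against 7.49% of all genes) and 1 below (5.26%, against 23.2%). The gene below was Sox2, a pluripotency factor, at 2.31 and 5.02 FPKM in control and listed at 0 in both FK866+NMN libraries. Klf17, a Krüppel-like factor of early embryos, was at 426 and 434 in control and 304 and 272 in FK866+NMN libraries, and Dppa3, a maternal protector of DNA methylation, at 2069 and 2048 in control and 1574 and 1613 in FK866+NMN libraries. These last differences were within 2-fold, although the libraries did not overlap. Nanog, another pluripotency factor, stood at 22.7 FPKM in FK866+NMN library B and was listed at 0 in library A.

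Of the genes of NAD+ synthesis, transport and use, 16 were compared, with 0 higher and 5 lower (31.2%, against 36.2% of all genes) and a median of -0.63 against -0.31 with FK866 alone. The median was -0.34 with a minimum of 5 FPKM, -0.06 with none and -0.27 without control library B. Nmnat1, the nuclear enzyme that makes NAD+ from NMN, was at 15.1 and 33.8 FPKM in control, 9.33 and 11.7 in FK866 and 14.0 and 10.3 in FK866+NMN libraries, a difference of -0.95. Slc25a51, the mitochondrial NAD+ carrier, was at 18.7 and 20.5 in control, 6.42 and 29.0 in FK866 and 4.42 and 0.712 in FK866+NMN libraries. Parp1, an NAD+-consuming DNA repair enzyme, was at 5.65 and 3.95 in control and 0 and 1.52 in FK866+NMN libraries. For each of these genes both FK866+NMN values were below both control values. Nampt, the target of FK866, was not analysed here.

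Among the sirtuins, the NAD+-dependent deacylases, Sirt1 overlapped between groups. It stood at 86.6 and 66.2 FPKM in control, 79.3 and 55.1 in FK866 and 92.3 and 53.3 in FK866+NMN libraries, a limma difference with NMN of -0.11 (SE 0.48, adjusted p = 0.91). Sirt2 and Sirt3 were scarce. Sirt3, the mitochondrial deacetylase, was at 0.744 and 3.74 in control and Sirt2 at 3.71 and 0.477, and both were listed at 0 in FK866+NMN libraries. Of 10 writers, erasers and readers of histone acetylation compared, 0 were higher and 1 was lower, with 0 of 9 lying apart by both libraries in either direction past 2-fold.

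In energy metabolism the genes of glycolysis and lactate had 2 higher and 11 lower of 22 (50.0% lower, against 36.2% of all genes), with a median of -0.96 against -0.66 for FK866 alone, and 6 of 20 lay below by both libraries (30.0%, against 23.2%). The median shrank to -0.23 with a minimum of 5 FPKM and to -0.35 with a pseudocount of 5. Pkm, pyruvate kinase, was at 33.5 and 20.8 FPKM in control, 11.5 and 13.6 in FK866 and 7.04 and 10.5 in FK866+NMN libraries. Ldha, a lactate dehydrogenase subunit, was at 20.6 and 35.6 in control, 23.6 and 14.3 in FK866 and 0.143 and 6.44 in FK866+NMN libraries. Ldhb, the more abundant subunit, stood at 938 in control, 935 in FK866 and 1312 in FK866+NMN embryos by the group columns, a difference of 0.48, and could not be split in the last. Pfkfb3, a maker of the glycolytic activator fructose-2,6-bisphosphate, was at 7.74 and 7.59 in control and listed at 0 in both FK866+NMN libraries. Mpc2, of the mitochondrial pyruvate carrier, was at 20.2 and 28.5 in control and 10.8 and 3.08 in FK866+NMN libraries.

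The tricarboxylic acid cycle genes were mixed, with 5 higher and 5 lower of 19 (26.3% each, against 21.0% and 36.2% of all genes). Their median of 0.38 ran from -0.73 to 0.47 over single library pairs and turned to -0.70 without FK866+NMN library A and -0.17 without library B. Got2, the mitochondrial aspartate aminotransferase of the malate-aspartate shuttle, was at 2.29 and 3.48 FPKM in control, 4.53 and 2.70 in FK866 and 61.4 and 17.9 in FK866+NMN libraries, a difference of 3.39. Suclg2, a succinyl-CoA ligase subunit, was at 3.65 and 14.7 in control, 18.0 and 12.9 in FK866 and 56.7 and 15.7 in FK866+NMN libraries. For Got2 both FK866+NMN libraries lay above the FK866 libraries, while for Suclg2 these groups overlapped and FK866+NMN library A carried the difference. Idh3b, a subunit of isocitrate dehydrogenase, was at 5.42 and 4.00 in control and listed at 0 in both FK866+NMN libraries, and Sdhb, of complex II, was at 2.94 and 11.3 in control and 0 and 0.0835 with NMN.

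Oxidative phosphorylation subunits had 5 higher and 17 lower of 38 (13.2% and 44.7%, against 21.0% and 36.2% of all genes). By both libraries 15 of 37 lay below (40.5%, against 23.2% of all genes). Their median of -0.56 ran from -1.94 to -0.30 over single library pairs. Uqcrc2 of complex III and Ndufa8 and Ndufc1 of complex I were listed at 0 in both FK866+NMN libraries, against 6.49 to 23.0 FPKM in control. The ATP synthase subunit gene Atp5k was at 12.4 and 31.6 in control and also listed at 0. In control these 4 genes were of modest level.

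Redox defence genes went both ways, with 4 higher and 6 lower of 22 (27.3% lower, against 36.2% of all genes). Prdx1, a peroxiredoxin, was at 37.7 and 65.6 FPKM in control, 102 and 68.5 in FK866 and 240 and 178 in FK866+NMN libraries, a difference of 2.00. Txn1, thioredoxin, was at 15.5 and 5.25, 25.1 and 22.6, and 153 and 24.2 in the same order. Both were abundant in early 2-cell embryos, at 371 and 200.2 FPKM, and the FK866+NMN libraries lay above control for each. Msrb3, a methionine sulfoxide reductase, was at 1.29 and 5.10 in control and 28.9 and 6.0 in FK866+NMN libraries. Gpx7, a glutathione peroxidase of the endoplasmic reticulum, was at 9.28 and 26.3, and Txnrd3, a thioredoxin reductase, at 5.24 and 3.30 in control, and both were listed at 0 in FK866+NMN libraries.

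The lists of protein synthesis and turnover leaned lower. Of 53 cytosolic ribosomal protein genes 22 were lower and 1 higher, and in all 23 both FK866+NMN libraries lay beyond both control libraries, which made 41.5% below against 23.2% of all genes. Their median was -0.86, against -0.43 for FK866 alone, and the medians of single library pairs ran from -1.09 to -0.73. Rps15 was at 303 and 344 FPKM in control, 88.4 and 92.7 in FK866 and 37.7 and 120 in FK866+NMN libraries. Rps20 was at 165 and 165, 93.8 and 106, and 21.9 and 57.8, and Rpl34 at 20.3 and 15.0, 9.03 and 8.05, and 3.66 and 2.55. The exception, named for that reason, was Rpl7, at 27.0 and 21.7 in control and 45.5 and 64.7 in FK866+NMN libraries. Summed over the 53 genes, the level was 11452 and 11089 FPKM in control, 7604 and 8351 in FK866 and 6078 and 7989 in FK866+NMN libraries, where each treated library was below each control library.

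Mitochondrial ribosomal proteins had 4 higher and 17 lower of 34 (11.8% and 50%, against 21.0% and 36.2% of all genes). By both libraries 14 lay below (41.2%, against 23.2% of all genes). Their median of -0.95 ran from -2.16 to -0.50 over single library pairs and was 0.13 over genes with a read in all 4 libraries. Mrps11 was at 19.9 and 49.1 FPKM in control, 2.05 and 15.3 in FK866 and listed at 0 in both FK866+NMN libraries, and Mrps12 was at 7.22 and 47.6 in control and 0 and 0.180 with NMN. Proteasome subunits had 2 higher and 10 lower of 22 (9.09% and 45.5%, against 21.0% and 36.2% of all genes), with 10 below by both libraries (45.5%, against 23.2%). Psmd5, a 19S assembly chaperone, was at 21.5 and 17.8 in control, 15.4 and 11.8 in FK866 and 0.997 and 2.40 in FK866+NMN libraries. Psmc4, a 19S ATPase, was at 20.1 and 30.4, 0.980 and 4.55, and 0.0546 and 0. The median of the proteasome genes was -0.50 with FK866+NMN and -0.50 with FK866 by the group columns. Over single library pairs that with FK866+NMN ran from -0.98 to -0.71, a range that does not hold the -0.50. It was -0.15 without control library B and 0.03 over genes with a read in all 4 libraries.

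**Figure D4:**
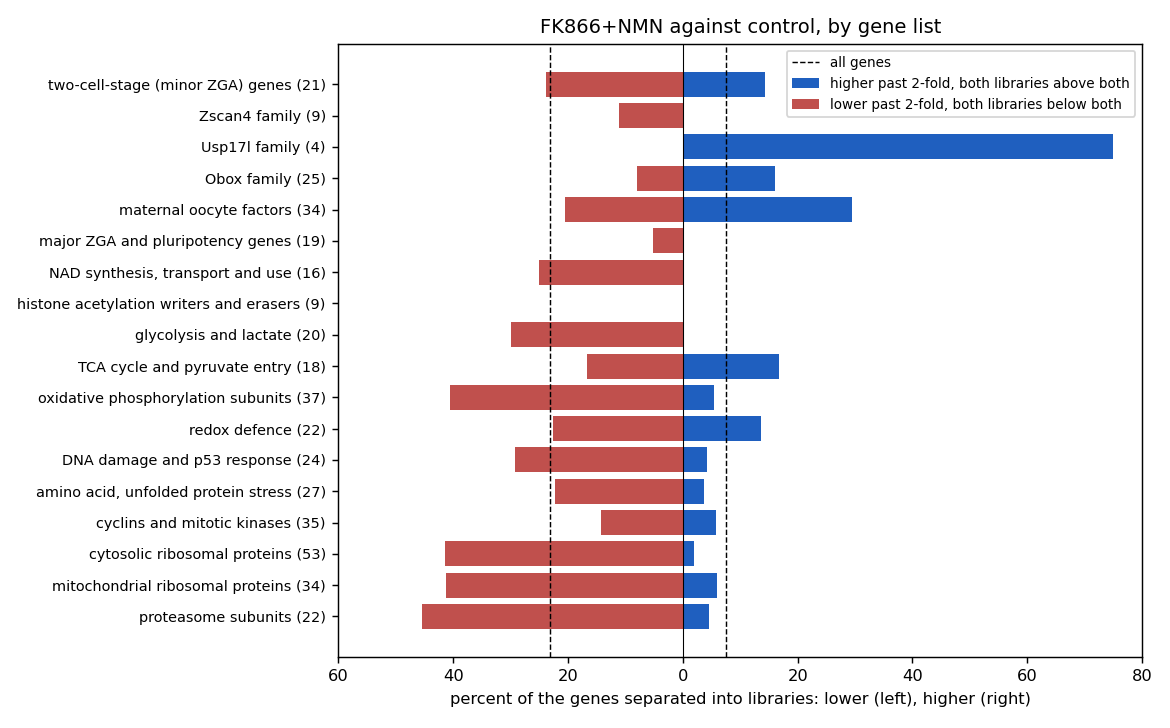
Share of genes in each list that were lower (left, red) or higher (right, blue) past 2-fold with both FK866+NMN libraries beyond both control libraries, in percent of the genes split into libraries (number in parentheses). Dashed lines mark all genes, at 23.2% lower and 7.49% higher, and cytosolic ribosomal proteins reach 41.5% lower.

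In stress and growth control, amino acid and unfolded protein stress genes had 6 higher and 9 lower of 28, with 1 above and 6 below by both libraries. These shares, 32.1% lower and 22.2% below, were near those of all genes (36.2% and 23.2%). The median of -0.67, against 0.00 for FK866 alone, ran from -1.52 to -0.14 over single library pairs. Eif2ak4 (GCN2), the kinase that senses uncharged tRNA, was at 6.35 and 16.3 FPKM in control, 10.5 and 13.9 in FK866 and listed at 0 in both FK866+NMN libraries. Hspa5 (BiP), the chaperone of the endoplasmic reticulum, was at 4.75 and 3.75, 5.49 and 15.6, and 0.196 and 0 in the same order. Psph, the last enzyme of serine synthesis, was at 0 and 0.998 in control, 3.43 and 4.26 in FK866 and 15.4 and 4.19 in FK866+NMN libraries. Cebpg, a bZIP partner of ATF4, was at 11 and 6.66 in control and 0.0210 and 0 with NMN.

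DNA damage and p53 genes had 2 higher and 9 lower of 26, with 1 above and 7 below by both libraries. The share lower, 34.6%, was near the 36.2% of all genes, and that below was 29.2% against 23.2%. Mdm2, the ubiquitin ligase of p53, was at 26.5 and 40.9 FPKM in control, 40.3 and 44.1 in FK866 and 0 and 16.3 in FK866+NMN libraries. Ung, the uracil-DNA glycosylase, was at 27.1 and 35.4, 24.1 and 16.8, and 2.51 and 8.41. Bbc3 (PUMA), a p53 target that promotes apoptosis, was at 3.25 and 2.94 in control and listed at 0 with NMN. Mre11a, a double-strand break nuclease, went the other way, at 1.14 and 3.61 in control and 19.8 and 6.09 in FK866+NMN libraries.

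Cyclins and mitotic kinases had 3 higher and 7 lower of 35 (20.0% lower, against 36.2% of all genes), with 2 above and 5 below. Cdc25b, the phosphatase that activates CDK1, was at 3.54 and 6.57 FPKM in control, 25.7 and 19.9 in FK866 and 51.2 and 15.0 in FK866+NMN libraries. Cdkn1b (p27), a CDK inhibitor, was at 0.606 and 0 in control and 7.99 and 1.11 in FK866+NMN libraries. Mcm3, of the replicative helicase, was at 51.4 and 20.3 in control, 22.2 and 9.77 in FK866 and 11.7 and 0 in FK866+NMN libraries. Cdk4 was at 9.39 and 3.40 in control and 0 and 0.288 with NMN. Aurka, the mitotic Aurora kinase, was at 151 and 175 in control, 136 and 115 in FK866 and 27.2 and 77.0 in FK866+NMN libraries.

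Relative to the median of all genes (-0.35), the lists of 2-cell markers, major ZGA, histone acetylation, redox, DNA damage and cyclin genes, and the Zscan4 family, lay slightly above it, so that the sign of their negative medians (-0.23 to -0.10) turned under centring. Those of glycolysis, ribosome, oxidative phosphorylation, proteasome, NAD+ and stress genes stayed negative under centring.

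Of the families with many copies, 5 of 26 Obox genes were higher and 5 lower (19.2% each, against 21.0% and 36.2% of all genes). Obox4-ps35 was at 14.2 and 9.89 FPKM in control, 8.86 and 55.9 in FK866 and listed at 0 in both FK866+NMN libraries. Obox4-ps28, Obox4-ps27 and Obox4-ps12 stood at 3.02 to 7.54 FPKM in the FK866+NMN and at 0 to 3.26 in the control libraries, and near-copies of this kind may share reads. Of 43 Pramel and Pramef genes 12 were higher (27.9%, against 21.0% of all genes) and 3 lower (6.98%, against 36.2%), but only 5 could be split into libraries. Of 5 histone genes 3 were lower (60%, against 36.2% of all genes), and 1 could be split.

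The largest differences at 10 FPKM or more, with libraries apart, were mostly against a group with no or few reads, which does not show absence. Zfp982, a zinc-finger gene, was listed at 0 in control and stood at 21.7 and 17.3 FPKM in FK866 and 71.4 and 29.9 in FK866+NMN libraries, with 37.2 in early 2-cell embryos. Il34, a ligand of the CSF1 receptor, was listed at 0 in control and stood at 1.88 and 12.5 in FK866 and 43.4 and 45.7 in FK866+NMN libraries. The pseudogene Mrgprb13 was at 0 in control, 8.61 and 11.9 in FK866 and 72.3 and 64.1 in FK866+NMN libraries, a difference of 6.11 (limma adjusted p = 0.105). The remaining 9 of the 12 highest were Gpr63, Gm36355, Gm31693, Gm6489, S100a10, Aadac, Bola1, Dbx1 and Gm28065. For S100a10 and Bola1 FK866+NMN library A carried the difference, at 78.8 against 0.617 and at 64.4 against 0.173 FPKM in library B.

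Of the 12 lowest, Cstb, a cathepsin inhibitor, was at 84.9 and 195 FPKM in control, 116 and 67.1 in FK866 and 0 and 0.930 in FK866+NMN libraries, a difference of -6.59 (limma adjusted p = 0.105). Eif3g, of translation initiation factor 3, was at 80.1 and 55.8, 10.4 and 5.08, and 0 and 0.0942 in the same order. Aprt, which salvages adenine, was at 123 and 46.4 in control, 34.9 and 50.3 in FK866 and 0 and 0.694 with NMN. Mrpl41, of the mitochondrial ribosome, was at 63.9 and 92.2, 39.5 and 25.3, and 0 and 0.210. Snrnp35, of the minor spliceosome, was at 37.2 and 52.8 in control and 33.1 and 50.0 in FK866, and listed at 0 with NMN. For Snrnp35 and Cstb the FK866 and control libraries overlapped. The others were Gm16327, Mir7659, Gm24045, Gm14276, Gm21028, Zar1l and Cacybp.

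**Figure D5:**
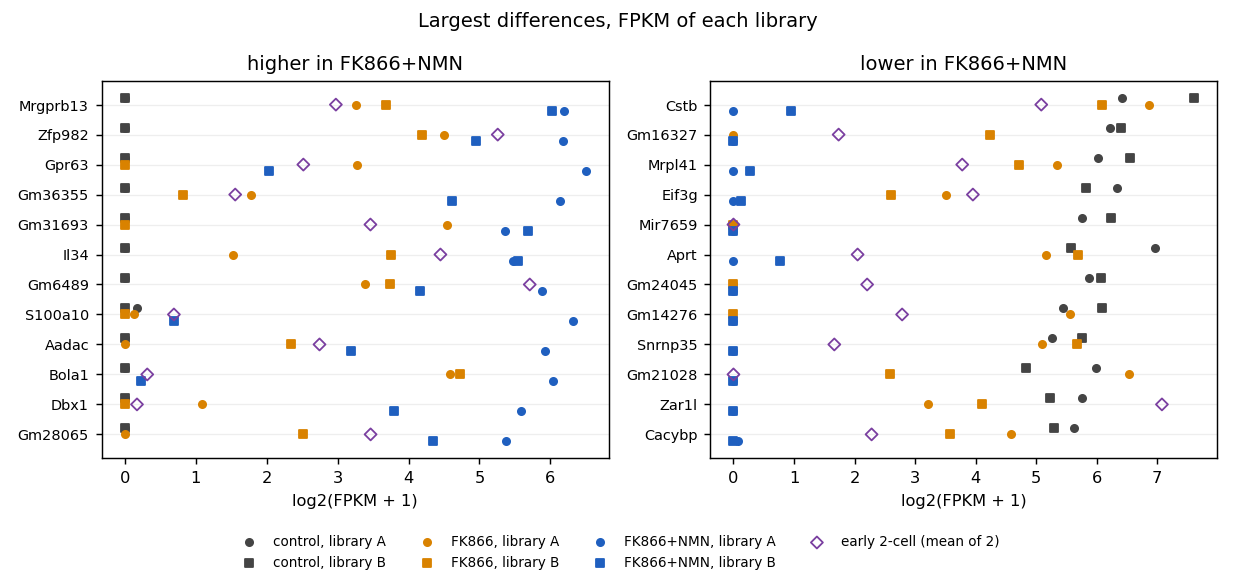
The 12 largest differences in each direction among genes with at least 10 FPKM in the higher group and libraries apart. The horizontal axis is log2(FPKM + 1), with 1 point per late 2-cell library and an open diamond for the early 2-cell mean. Control points of Zfp982 and Mrgprb13 sit at 0, and FK866+NMN points of Snrnp35 sit at 0.

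Markers of other cells differed in level. Of 14 cumulus and granulosa cell markers among the rows, 3 reached 1 FPKM in control or FK866+NMN embryos and 7 were listed at 0 in all 3 late 2-cell groups, among them the defining genes Foxl2, Star and Cyp11a1. Gja1, a gap junction gene that embryos also express, was at 3.33 and 2.39 FPKM in control and 0 and 0.802 in FK866+NMN libraries, and Vim at 0.259 and 1.72 and at 8.52 and 0.0788. The 3 markers summed to between 0.881 and 9.44 FPKM in the control and FK866+NMN libraries. Of 6 sperm markers 2 reached 1 FPKM: Odf2 stood at 35.5 and 29.4 in control and 26.1 and 56.2 in FK866+NMN libraries, and Ldhc at 10.7 and 2.89 and at 29.4 and 0.118, with overlapping groups for both.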

How the data were processed

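RNA was sequenced from pools of 3 embryos, 2 libraries per group. The authors trimmed reads, used HISAT2 on mm10 for alignment and featureCounts for counting, and deposited FPKM, with 1 column per group that sums its libraries. Base calling used CASAVA 1.4 per the labels. The rows used here cover chromosomes 1 to 11, the last in part. An incomplete last row and repeated symbols were dropped, which left 15737 genes, of which 15360 had an exon length in GENCODE M21 (GRCm38).

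FPKM times exon length is a sum of whole multiples of what 1 read was worth in either library, which split 96.8% to 97.8% of the values above 0 in each column into its libraries. Values were divided by 2 and compared as log2(FPKM + 1). Counting totals were 4164896 to 8963343 reads in the late 2-cell libraries, so at 1 kb of exon 1 read was worth 0.112 to 0.240 FPKM. Reads are not independent molecules. Libraries were tested with limma 3.58.1 (R 4.3.3, trend, 3 late 2-cell groups, Benjamini-Hochberg). The study used DESeq2 on counts, which are not used here. Scripts ran on Python 3.11.15 with numpy 2.4.6 and pandas 2.3.3 and were tested on simulated data.

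The gene lists and the rule for named genes were chosen with earlier results of these data known. Named genes are the 12 with the largest difference in each direction among those past 2-fold with at least 10 FPKM in the higher group and libraries apart, up to 4 such members of each list, and Duxf3, Sirt1, Nampt, Nmnat1, Ldhb and Oog1. Oog1 was not analysed here. Genes outside this rule (stage and other-cell markers such as Zscan4c, Zfp352, Zp3, Vim, Odf2 and Ldhc, and Cnot6l, Pan3, Ooep, Nlrp5, Nlrp14, Klf17, Dppa3, Nanog, Rpl7, Prdx1 and Aurka, and the abundant, Nlrp, Fbxw and study-list genes) were chosen after their values were seen. Alternatives were the pseudocount, the minimum, centring, undivided columns, quantile normalization, the groups fitted, a 4-fold stage definition and each library left out. Genes with a read in all 4 libraries and a floor of 3 reads were added after seeing the data. So was the column headed late 2-cell TSA, as the other 4-cell control.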

Additional observations from a re-analysis of the deposited data

How the results depend on the processing

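With a pseudocount of 5, 936 genes were higher and 1274 lower past 2-fold, 1044 were lower with both libraries below, and the medians of the early 2-cell-high and 4-cell-high genes were 0.27 and -0.49. With a minimum of 5 FPKM 1585 were lower, 1233 with both libraries below, and the early 2-cell-high median was 0.60. That median was 0 with no minimum and 0.55 with a 4-fold definition of the stage sets. Centred on the median of all genes, the stage medians were 0.75 and -0.54. Over genes with a read in all 4 libraries, 669 were higher and 701 lower, 634 with both libraries below, and the medians were 0.53 and -0.56.

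Leaving out each library in turn, the early 2-cell-high median ran from -0.16 to 0.63, the reversed value being that without FK866+NMN library B, and the 4-cell-high median from -1.48 to -0.81. The limma calls ran from 0 to 180 higher and 0 to 479 lower, against 0 and 0 with all 6 libraries, and stayed at 0 with the 2 groups alone, other pseudocounts, a minimum of 5 FPKM or quantile normalization. The cause was not tested. Of 876 values of named genes, 31 no longer passed 2-fold, 15 of them with a pseudocount of 5, and 0 reversed. Of 252 list medians 63 moved by more than the spread between library pairs.

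No paired analysis was possible because the separated libraries carry no replicate number. At these depths a gene under 3 reads in a library cannot be told from one at 0. FPKM are relative values, so a total change in RNA per embryo cannot be seen.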
